A study of Mus musculus with 9 samples.

Results

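The genes described here are 42 mouse genes of DNA replication and S phase, the part of the cell cycle in which a cell copies its DNA. They were chosen by name from the 54838 genes of the deposited table, and all 42 were found there and passed the filter on low values. In outline, the origin recognition complex (Orc1, Orc6) with Cdc6 and Cdt1 loads the MCM helicase (Mcm2 to Mcm7) onto DNA before S phase. Cdc45, Mcm10 and the GINS complex (Gins1 to Gins4) then switch the helicase on, primase and the polymerases copy the strands behind it, and the PCNA clamp with its RFC loader keeps the polymerases in place. Ribonucleotide reductase (Rrm1, Rrm2), Tyms and Tk1 supply deoxynucleotides, and E2F transcription factors and cyclin E switch many of these genes on at the G1/S border. In the embryonic kidney these genes mark dividing cells, among them nephron progenitors and growing tubules, and they are turned down as tubule cells mature.

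RNA came from cells of CD1 mouse embryos that were dissociated from kidneys at E18.5 and sorted for CD133 (prominin-1, gene Prom1), and the labels name them proximal tubule cells. There were 9 libraries in 3 groups of 3. Control embryos were Tsc1 fl/fl, without Cre, from dams given DMSO vehicle, although their titles call them wild type. Mutant embryos were Six2 Cre Tsc1 fl/fl from dams given DMSO vehicle, and the rapamycin group was Six2 Cre Tsc1 fl/fl from dams given rapamycin at 0.2 mg/kg by intraperitoneal injection every other day from E12.5 to E16.5. All 3 groups thus carried floxed Tsc1 alleles, and the mutants arose from matings of Tsc1 fl/fl with Six2 Cre Tsc1 fl/+ mice. Tsc1 encodes hamartin, a brake on the growth kinase complex mTORC1, rapamycin inhibits mTORC1, and the Six2 Cre transgene is active in nephron progenitors, so Cre-expressing progenitors and their descendants are the cells that can lose Tsc1. Controls given rapamycin are not among the groups analysed here. The labels give each replicate a number but not whether it is an embryo, a litter or a pool, so the spread behind every p-value is that between libraries and may in part be technical. The libraries are called control 1 to 3, mutant 1 to 3 and rapamycin 1 to 3 below.

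Many replication genes carry binding sites for E2F factors near their start sites, so the promoters are shown first. RefSeq promoter windows (GRCm38.p6, 250 bases before to 50 after a start site, 300 bases in all) matched 34 of the 42 genes, with 39 windows. The letters searched, on both strands, were the E2F octamers TTTCCCGC, TTTGGCGC, TTTCGCGC and TTTGCCGC. At least 1 of them lay in 14 of the 39 windows, or 35.9%, against 744 of 32851 windows of all genes, or 2.27%. These 14 windows belonged to 14 of the 34 matched genes and held 20 matches. Of these, 8 began more than 100 bases before the start site, 4 within the 100 bases before it and 8 at or after it. The first bases of all matches lay between -185 and +40. TTTCGCGC was found in 7 windows, TTTCCCGC and TTTGGCGC in 6 each, and TTTGCCGC in 0 of 39. Promoters of these genes were also richer in G and C than those of all genes, with a median GC content of 60% against 52.7%. A match describes letters and not a bound site, and windows without one may hold other forms of the site.

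The 5 windows below are the 4 with most matches, ties broken by the p-value of rapamycin against control, and that of Rfc4, the gene with the smallest p-value in mutant against control. Each is written 5′ to 3′ on the gene's strand in GRCm38.p6. Capitals mark E2F octamers or their reverse complements, and overlapping matches run together.
Mcm6, chr1:128359656-128359955, minus strand, 3 matches: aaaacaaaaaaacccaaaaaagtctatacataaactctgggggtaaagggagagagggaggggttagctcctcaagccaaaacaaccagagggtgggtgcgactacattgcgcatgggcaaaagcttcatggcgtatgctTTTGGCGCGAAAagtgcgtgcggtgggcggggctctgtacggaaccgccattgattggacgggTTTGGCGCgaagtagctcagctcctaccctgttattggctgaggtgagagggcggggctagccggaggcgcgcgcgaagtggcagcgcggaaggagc
Rfc3, chr5:151651159-151651458, minus strand, 2 matches: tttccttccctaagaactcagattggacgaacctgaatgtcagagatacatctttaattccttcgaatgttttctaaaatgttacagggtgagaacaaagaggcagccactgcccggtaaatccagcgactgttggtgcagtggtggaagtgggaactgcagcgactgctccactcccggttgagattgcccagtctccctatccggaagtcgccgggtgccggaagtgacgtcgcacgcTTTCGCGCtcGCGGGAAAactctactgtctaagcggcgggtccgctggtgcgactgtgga
Mcm7, chr5:138171834-138172133, minus strand, 2 matches: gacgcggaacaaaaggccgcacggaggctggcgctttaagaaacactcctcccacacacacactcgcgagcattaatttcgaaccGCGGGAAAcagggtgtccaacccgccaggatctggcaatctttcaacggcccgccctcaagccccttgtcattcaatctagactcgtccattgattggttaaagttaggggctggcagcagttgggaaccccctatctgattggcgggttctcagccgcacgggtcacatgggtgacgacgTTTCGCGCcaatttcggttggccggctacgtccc
Mcm5, chr8:75109259-75109558, plus strand, 2 matches: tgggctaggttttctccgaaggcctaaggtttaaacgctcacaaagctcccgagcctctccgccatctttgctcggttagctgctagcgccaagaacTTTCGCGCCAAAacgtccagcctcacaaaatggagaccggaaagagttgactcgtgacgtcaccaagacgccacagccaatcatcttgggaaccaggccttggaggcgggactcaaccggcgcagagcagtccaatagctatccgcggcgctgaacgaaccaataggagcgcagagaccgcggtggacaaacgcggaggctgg
Rfc4, chr16:23127681-23127980, minus strand, 0 matches: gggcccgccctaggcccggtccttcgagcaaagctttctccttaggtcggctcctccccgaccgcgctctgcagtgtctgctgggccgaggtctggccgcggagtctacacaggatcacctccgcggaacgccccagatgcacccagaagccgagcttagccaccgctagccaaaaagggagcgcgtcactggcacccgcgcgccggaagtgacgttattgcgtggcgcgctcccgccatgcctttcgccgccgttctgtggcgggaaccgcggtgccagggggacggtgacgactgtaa
In the Mcm6 window 2 octamers overlap at -110 and -106 and the third begins at -47. The Mcm5 pair overlaps in the same way at -153 and -149, while in Rfc3 both lie at the start site, at -10 and +1. Mcm7 has 1 octamer well upstream at -165 and 1 behind the start site at +17. The Rfc4 window holds none of these letters.

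Library totals ranged from 23372093 to 32669791 counts, and libraries were compared as normalized counts, the raw count divided by the authors' size factor for that library. Of 18 proximal tubule markers, 18 had a count above 0 in every library. The same held for markers of stroma, endothelium, podocytes, leukocytes and nephron progenitors that passed the filter. It also held for the erythroid and skeletal muscle markers tested, so detection is no check of the labelled cell type. Prom1, the sorted marker, lay between 2453 and 3362 normalized counts. The Tsc1 count was 2041, 1744 and 1439.5 in controls, 1569.9, 1747 and 1624 in mutants and 1539, 1686 and 1526 with rapamycin. Mutant and control overlapped (log2 fold change -0.07 ± 0.13 SE, adjusted p = 0.962, limma), and since no source used here names the exons removed by Cre, a total count is no check of the deletion. Control 1 and rapamycin 2 stood apart by the share of counts on 3 genes that overlap ribosomal RNA, with 8.10% and 4.79% against 0.537% to 1.61% in the other 7 libraries. The main counts below are therefore also given without these libraries.

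Mean normalized counts of the 42 genes ran from 366.8 for Orc1 to 7521 for Mcm6. Per kilobase of exon, the highest control means were those of Pcna with 1973 normalized counts per kb, Mcm3 with 1881, Uhrf1 with 1848 and Mcm6 with 1801. The lowest means per kb were those of Orc1 with 120.1, Gins3 with 165, Ccne2 with 174 and Pole2 with 178. In control libraries each of the highest 4 spanned a range that overlapped that of the next, so their order is not resolved at this spread. The length used joins the exons of all annotated transcripts of a gene and can exceed that of any 1 transcript. Rrm1, with a control mean of 8262 normalized counts, had 11012 such bases and thus 750 per kb. The ranking per kb therefore depends on this choice of length. Together the 42 genes took 0.390% to 0.537% of all counts in controls, 0.392% to 0.408% in mutants and 0.263% to 0.385% with rapamycin.

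The group means of nearly all these genes had the same order. For 40 of the 42, control was highest, mutant intermediate and rapamycin lowest, an order that 23.1% of all 19656 tested genes share. The other 2, Pola1 and Pold1, had control highest and the mutant lowest, as 14.1% of all genes do. Single libraries stood out within this order. Control 3 was the highest of the 9 libraries for 36 genes and rapamycin 2 the lowest for 40. The median deviation of the 42 genes from their own mean was 0.04, 0.26 and 0.47 on the log2 scale in control 1, 2 and 3. In mutant 1, 2 and 3 it was -0.01, -0.07 and -0.0026, and in rapamycin 1, 2 and 3 it was -0.04, -0.55 and -0.16. The mutant libraries thus lay close together, rapamycin 1 was at their level, and control 1 was just above it. Because these are bulk samples, fewer dividing cells and less of these RNAs per cell cannot be told apart.

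**Figure D1:**
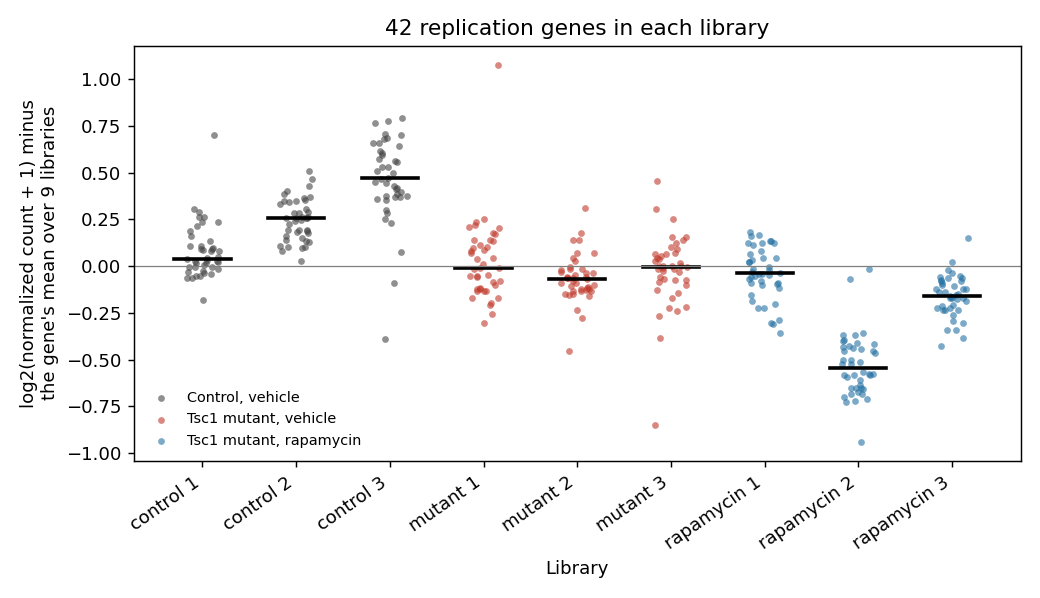
Deviation of each of the 42 replication genes from its own mean over the 9 libraries, on the log2(normalized count + 1) scale (vertical axis), by library (horizontal axis). Points are genes and bars are medians, which run from 0.47 in control 3 to -0.55 in rapamycin 2, while the 3 mutant libraries sit near 0.

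In Tsc1 mutants given vehicle, the fitted values of the replication genes were slightly lower than in controls. All 42 fitted log2 fold changes were negative, from -0.48 in Pold1 to -0.06 in Orc6, with a median of -0.28 against -0.0055 for all genes tested. Of all genes, 50.8% had a negative value. The 42 genes largely moved together between libraries, so counts of them, in each comparison, are not counts of independent observations. Control 3 was the highest library for 36 of them, and without it the median was -0.19. The difference between mutant and control did not pass the test for any single gene. With limma, 0 of the 42 were called at an adjusted p under 0.05, while 1.42% of all genes were called, 0.366% of all genes being called lower and 1.05% higher. At an unadjusted p under 0.05, 10 of the 42 were lower, against 4.24% of all genes. limma-voom called 0 as well, also with 10 at an unadjusted p under 0.05. The smallest adjusted p was 0.221, that of Rfc4. In 16 genes every mutant library lay below every control library, which held for 6.14% of all genes. Over all genes, control and mutant libraries of the same number had correlated deviations (0.428, 0.137 and 0.445), weakly so for number 2. This was seen in these data and is not stated in the labels. Control 1 and rapamycin 2, of different number, reached 0.471, so a correlation does not by itself mark a pair. With the number as a block in a fit of these 2 groups, 7 of the 42 were called lower, with the same fold changes. They were Pold1 (adjusted p = 0.0100), Rfc5 (0.0162), Cdc45 (0.0196), Tyms (0.0282), Rpa2 (0.0407), Tk1 (0.0449) and Rfc3 (0.0473), and that fit called 1398 of all genes, where the same 2 groups without the block gave 99. With the block in the fit of all 9 libraries, limma called 0 of the 42, with 12 at an unadjusted p under 0.05, and 405 of all genes.

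Between mutants with rapamycin and mutants with vehicle, no replication gene passed the test. The fitted log2 fold changes ran from -0.71 in Chaf1b to 0.06 in Pola1, 39 of 42 were negative (51.4% of all genes), and the median was -0.20 against -0.0084 for all genes. limma called 0 of the 42, limma-voom called 0, and 6 had an unadjusted p under 0.05 and were lower, against 5.52% of all genes. Over all genes 0.3% were called, 0.056% of all genes being lower and 0.244% higher. The smallest adjusted p was 0.231, that of Rrm2. Rapamycin libraries lay wholly below mutant libraries for 9 genes, against 9% of all genes. This comparison depended on rapamycin 2. Without it the median was -0.06 and 27 of 42 values were negative.

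The lowest levels were those of rapamycin-treated mutants, which were compared with controls across both genotype and treatment. All 42 fitted log2 fold changes were negative (50.7% of all genes), from -0.87 in Chaf1b to -0.19 in Pola2, and the median was -0.50 against -0.0049 for all genes. With limma, 6 genes were called lower at an adjusted p under 0.05 and 0 higher, where 0.941% of all genes were called lower, 2.3% higher and 3.24% in either direction. The 6 genes were Rrm2, Prim1, Rfc4, Cdc45, Rfc3 and Tyms, and limma-voom also called 6. At an unadjusted p under 0.05, 32 of the 42 were lower, against 7.96% of all genes. In 25 genes the groups did not overlap, against 10.8% of all genes. The authors' deposited table called 17 of the 42 lower in this comparison, where it called 456 lower and 772 higher of 24531 genes. In mutant against control the authors' deposited table called 0 of the 42, with 194 of all genes lower and 400 higher, and in rapamycin against mutant 0 of the 42, with 106 lower and 284 higher. The 3 comparisons share libraries, so their values for a gene are not independent of each other.

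**Figure D2:**
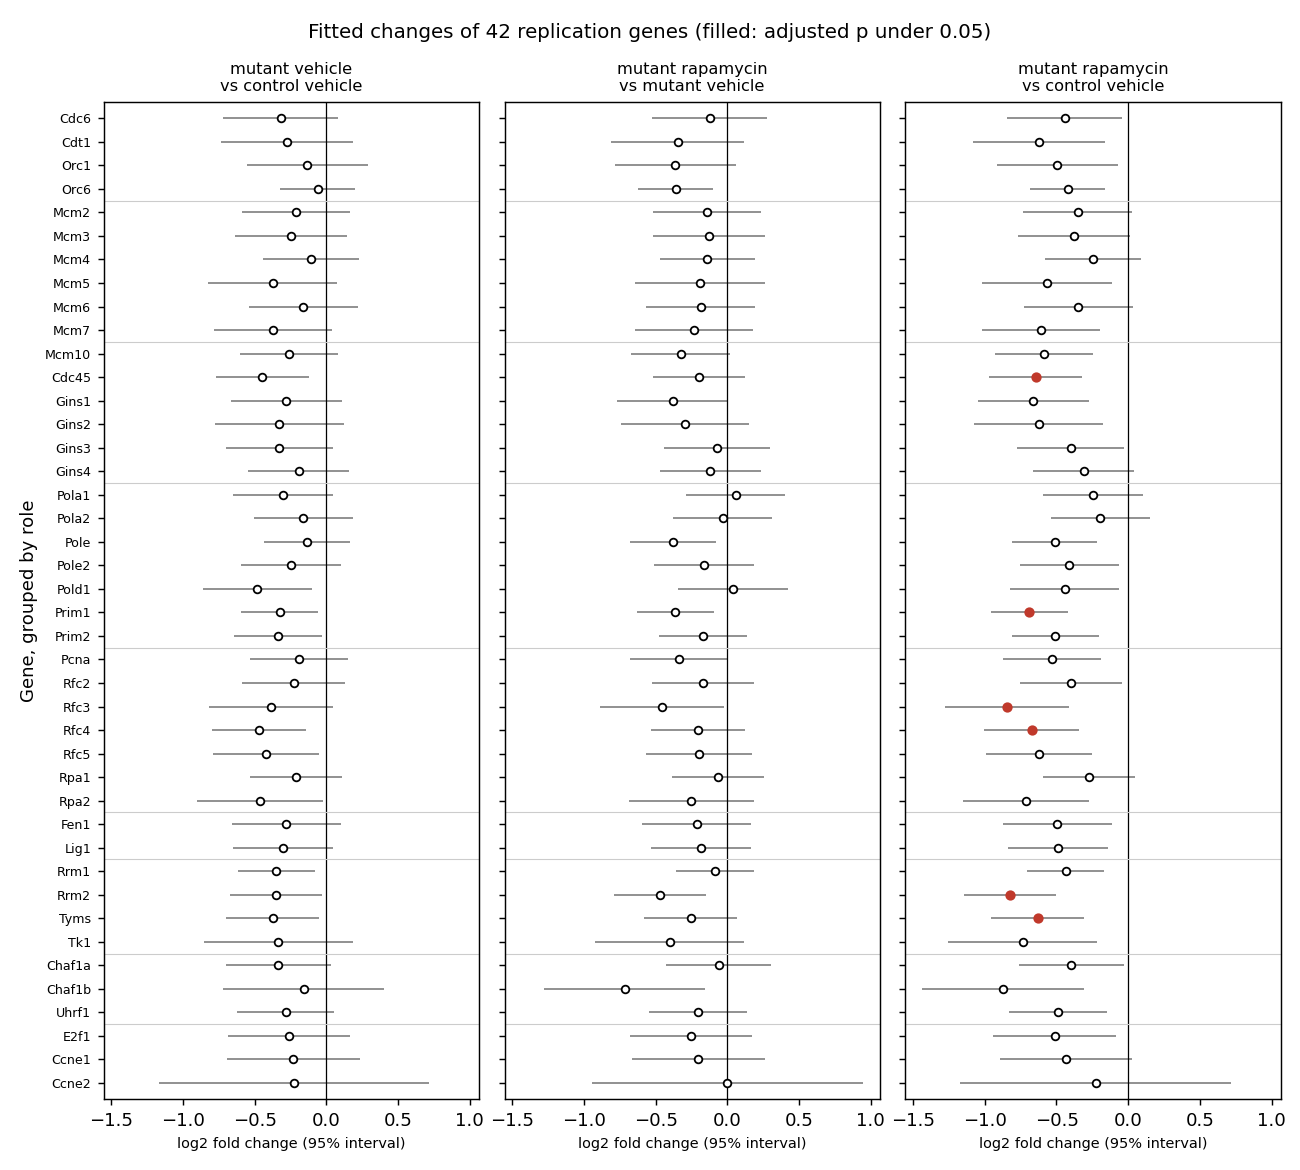
Fitted log2 fold changes of the 42 genes (horizontal axis, with 95% intervals) in the 3 comparisons, grouped by role (vertical axis). Filled points have an adjusted p under 0.05 (limma): 0 in the first and second panels and 6 in the third, where all 42 values lie left of 0.

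The count of 6 depended on single libraries. Left out in turn, control 2 and rapamycin 2 each brought it to 0, rapamycin 3 to 1, control 3 and mutant 2 to 2, mutant 3 and rapamycin 1 to 3, and control 1 raised it to 17. The genes added without control 1 were Mcm7, Mcm10, Cdt1, Gins1, Pcna, Tk1, Pole, Rfc5, Lig1, Rpa2 and Chaf1b. Over the fits that left out 1 library, 19 to 39 of the 42 had an unadjusted p under 0.05. Calls over all genes moved with them: 185 genes were called lower with all libraries, 20 without control 2, 43 without rapamycin 2, 60 without rapamycin 3, 66 without control 3 and 412 without control 1. Leaving out control 1 and rapamycin 2 together gave 3 called genes (Rrm2, Rfc3 and Chaf1b, the last not among the 6) and a median of -0.45. The median itself kept its sign in every fit, between -0.60 without rapamycin 1 and -0.34 without rapamycin 2.

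**Figure D3:**
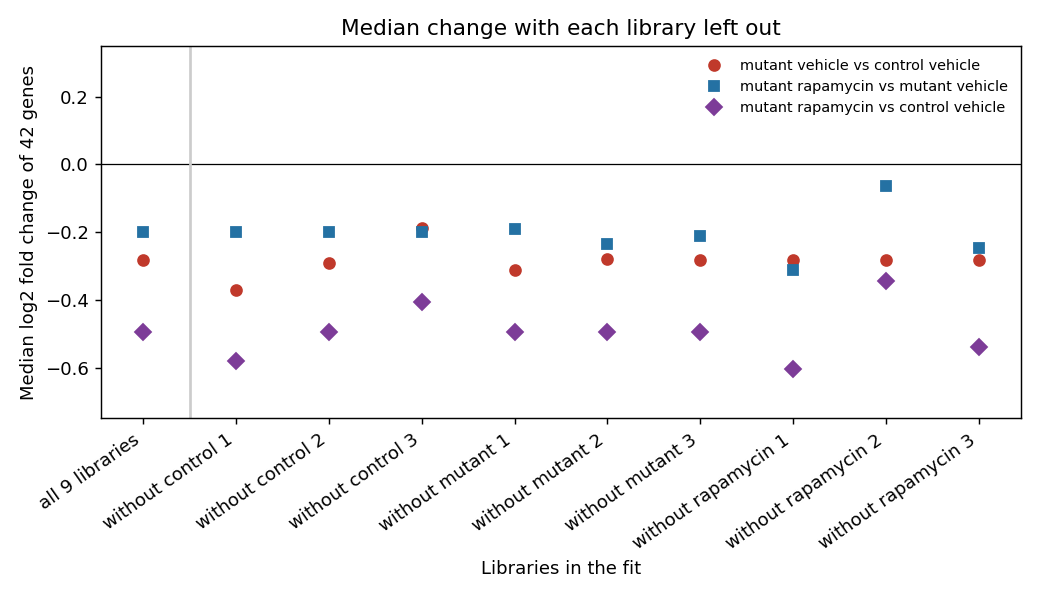
Median log2 fold change of the 42 genes (vertical axis) with all 9 libraries and with each library left out (horizontal axis), for the 3 comparisons. Rapamycin against control stays between -0.60 and -0.34, whereas rapamycin against mutant moves from -0.20 to -0.06 without rapamycin 2.

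Deoxynucleotide supply held 2 of the 6 called genes and the one with the smallest p. Rrm2, the small subunit of ribonucleotide reductase and the one made mainly in S phase, had 4141, 4896 and 5366 normalized counts in controls, 4007, 3582 and 3640.4 in mutants and 2938, 2208 and 3029 with rapamycin. The 3 groups did not overlap at any step. Its log2 fold change was -0.82 ± 0.15 (SE) from control to rapamycin (adjusted p = 0.0130, limma), made up of -0.35 ± 0.15 (SE) from control to mutant and -0.47 ± 0.15 (SE) from mutant to rapamycin, and the last 2 did not pass the test. The call held in 7 of 9 fits that left out a library and was lost without control 2 or rapamycin 2, with an adjusted p of at most 0.0719. Tyms, thymidylate synthase, had 2492, 2411 and 2832 in controls, 2143, 1891 and 1922 in mutants and 1982, 1334 and 1733 with rapamycin. Every mutant and rapamycin library lay below every control, and mutant and rapamycin overlapped. Its log2 fold change with rapamycin against control was -0.63 ± 0.15 (SE) (adjusted p = 0.0439, limma), and it was called in 3 of the 9 fits. Rrm1, the large subunit of the reductase, had 7416, 8404 and 8965 in controls, 6921, 6274 and 6225 in mutants and 6708, 5326 and 6321 with rapamycin, with the step at the mutant (-0.35 ± 0.12 (SE)) and little between mutant and rapamycin (-0.09 ± 0.12 (SE)). All 4 genes of this role, with the salvage kinase Tk1, had an unadjusted p under 0.05 in rapamycin against control.

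Of the 7 polymerase and primase genes, 1 was called. Prim1, the catalytic subunit of primase, which lays the RNA primers for each new strand, had 1422, 1599 and 1565 normalized counts in controls, 1394, 1154 and 1126 in mutants and 987, 879.7 and 978 with rapamycin. No library of 1 group reached into another group. The rapamycin libraries were close together, with a mean of 948 ± 59.6 (SD, n = 3) against 1529 ± 94.1 (SD, n = 3) in controls. Its log2 fold change was -0.69 ± 0.12 (SE) (adjusted p = 0.0134, limma), with -0.32 ± 0.12 (SE) to the mutant and -0.36 ± 0.12 (SE) from there, and the call held in 6 of 9 fits. Pole, the catalytic subunit of the leading-strand polymerase epsilon, had 3145, 3969.5 and 3679 in controls, 2903, 3488 and 3433 in mutants and 2889.5, 2251 and 2429 with rapamycin. Here mutants overlapped controls, and the rapamycin libraries lay below both, with 2889.5 in rapamycin 1 just under the lowest mutant value; the change against control was -0.51 ± 0.14 (SE) (adjusted p = 0.0693). Pola1 and Pold1, catalytic subunits of polymerases alpha and delta, were the genes whose mean was no lower with rapamycin than in the mutant, with log2 differences of 0.06 ± 0.16 (SE) and 0.04 ± 0.17 (SE).

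Among the clamp, loader and single-strand binding genes, both called members belong to the replication factor C loader, which opens the PCNA ring and sets it on DNA. Rfc4 had 852, 995 and 1148 normalized counts in controls, 804, 693 and 654 in mutants and 650.3, 551 and 667 with rapamycin. Most of its difference was already present in the mutants (-0.47 ± 0.15 (SE)), which lay wholly below the controls, and the mutant and rapamycin ranges overlapped. Against control the change with rapamycin was -0.67 ± 0.15 (SE) (adjusted p = 0.0365, limma), a call kept in 3 of 9 fits. Rfc3 had 1233, 1708 and 2105 in controls, 1149.7, 1259 and 1362 in mutants and 1084, 747 and 947 with rapamycin, so that control 1 lay among the mutants while all rapamycin libraries were lower than every other library. Its log2 fold change against control was -0.84 ± 0.20 (SE) (adjusted p = 0.0439, limma), kept in 2 of 9 fits. Pcna itself, the sliding clamp, had 4022, 4778 and 5405 in controls, 4599, 3799 and 3984 in mutants and 3579, 2659 and 3613 with rapamycin. Its control and mutant libraries overlapped, its rapamycin libraries lay below both, and the change against control of -0.53 ± 0.15 (SE) did not pass the test (adjusted p = 0.0953). Of the 7 genes of this role, 6 had an unadjusted p under 0.05 in rapamycin against control; Rpa1, of the single-strand binding complex, was the exception.

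With all 9 libraries, the MCM helicase, the ring that unwinds DNA ahead of the fork, held no called gene. For its 6 subunits the median log2 difference was -0.23 from control to mutant and -0.37 from control to rapamycin, and limma called 0 of 6 in each, with 0 and 2 at an unadjusted p under 0.05; limma-voom also called 0 of 6. Mcm6 had 7163, 8412 and 9629 normalized counts in controls, 7606, 7351 and 7435 in mutants and 8096, 4950.1 and 7042 with rapamycin, so that rapamycin 1 exceeded every mutant library. The mutants were tightly grouped, and rapamycin 2 was the lowest library by a wide margin. Mcm7 had 5807, 7706 and 9652 in controls, 5493, 5706 and 6339 in mutants and 5656, 3999 and 5416 with rapamycin, with control 1 inside the mutant range. Its change with rapamycin against control was -0.61 ± 0.19 (SE) (adjusted p = 0.114), and without control 1 it was called (adjusted p = 0.0218, limma). Without rapamycin 2, the fitted rapamycin mean was above the mutant mean for 5 of the 6 subunits, Mcm2 to Mcm6.

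Helicase activation included 1 called gene. Cdc45, which joins MCM and GINS into the active helicase, had 1275, 1273 and 1580.0 normalized counts in controls, 1097, 903 and 1019.7 in mutants and 991, 746 and 904 with rapamycin. Mutant and rapamycin libraries all lay below the controls and overlapped each other. The log2 difference was -0.45 ± 0.15 (SE) from control to mutant and -0.65 ± 0.15 (SE) from control to rapamycin, where it passed the test (adjusted p = 0.0400, limma). That call held in 2 of 9 fits. Mcm10, the most abundant gene of this role, had 1450.5, 1728 and 1806 in controls, 1349, 1400.3 and 1386 in mutants and 1309.6, 865 and 1173 with rapamycin. Its groups did not overlap, yet the change of -0.59 ± 0.16 (SE) did not pass the test (adjusted p = 0.0693). For origin licensing, 0 of 4 genes were called by limma or limma-voom in rapamycin against control, although all 4 had an unadjusted p under 0.05. Cdt1, the loading factor, had 1936, 2494 and 3189 in controls, 1689, 2125 and 2411 in mutants and 1901, 1266 and 1749 with rapamycin, a wide spread within each group. Orc6, a subunit of the origin recognition complex, had 1159.9, 1175 and 1326 in controls, 1227, 1200.3 and 1080.0 in mutants and 948, 824 and 964 with rapamycin. Controls and mutants overlapped in Orc6, and the step lay between mutant and rapamycin (-0.36 ± 0.12 (SE), adjusted p = 0.264).

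**Figure D4:**
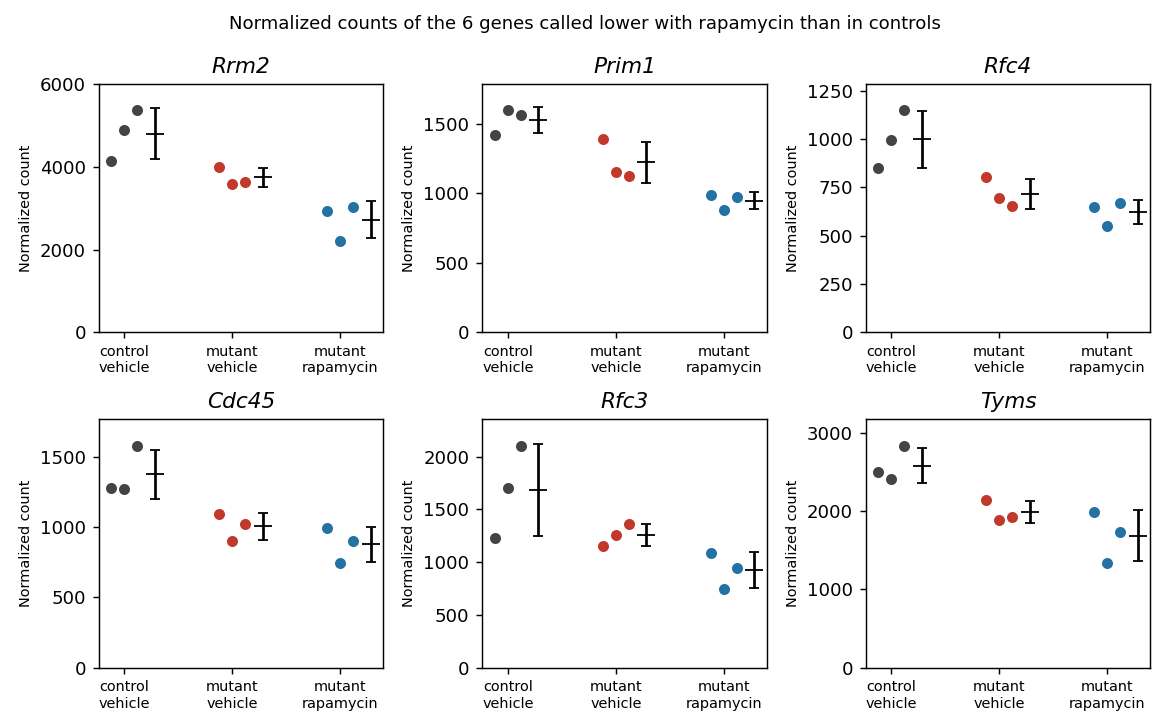
Normalized counts (vertical axis, from 0) of the 6 genes called lower in rapamycin-treated mutants than in controls, by group (horizontal axis). Points are libraries and bars are mean ± SD (n = 3); Rrm2 and Prim1 step down at both stages without overlap, whereas in Rfc4, Cdc45 and Tyms the mutant and rapamycin libraries overlap.

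With all 9 libraries, the remaining roles held no called gene in any comparison by limma or limma-voom. In rapamycin against control, 2 of 2 genes of Okazaki fragment maturation, 3 of 3 of chromatin replication and 1 of 3 of G1/S control had an unadjusted p under 0.05. Lig1, the ligase that seals Okazaki fragments, had 4370.1, 5344 and 6251 normalized counts in controls, 4033, 4195 and 4587 in mutants and 4374, 3094 and 3919 with rapamycin. Uhrf1, which carries DNA methylation through replication, had 6983, 7874 and 8756 in controls, 6944, 5979 and 6411 in mutants and 6492, 4391 and 6088 with rapamycin. Both follow the common order with control 1 close to the mutants. Chaf1b, a subunit of the histone chaperone CAF-1, had the largest fold change of the 42, with 1423, 2299 and 2627 in controls, 1397, 2004 and 2210.1 in mutants and 1307, 841 and 1273 with rapamycin. Control 1 and mutant 1 were low, at about the level of rapamycin 1, and the change of -0.87 ± 0.26 (SE) against control missed the threshold (adjusted p = 0.0982). Chaf1b was called without control 1 (adjusted p = 0.0167, limma) and without control 1 and rapamycin 2 (0.0473). The transcription factor E2f1 had 1126, 1231 and 1874 in controls, 1047, 1147 and 1253 in mutants and 1096, 797 and 1019.8 with rapamycin, with control 3 far above the other 8 libraries and a change of -0.51 ± 0.19 (SE) (adjusted p = 0.196).

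Cyclin E2 (Ccne2) departed from most of the other genes and was singled out after its values were seen. It had 848, 575 and 397 normalized counts in control 1, 2 and 3, 1100.3, 380.3 and 288 in mutant 1, 2 and 3, and 406, 515 and 577 with rapamycin. Control 1 and mutant 1 were the highest libraries, and control 3, the highest library for 36 of the 42 genes, was among the lowest. Other genes shared parts of this. Control 3 was also the lowest control for Pola1 (1733), whose lowest library was mutant 3 (1415), and Mcm4 and Pole2 were also highest in mutant 1. The Ccne2 gene overlaps another gene. Of the annotated exon bases of Ccne2, 17.4% are shared with Ints8 on the opposite strand. Its log2 differences were -0.23 ± 0.43 (SE) from control to mutant and 0.00042 from mutant to rapamycin.

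Of a further 39 genes of licensing, replication forks and the S phase checkpoint, outside the 42, 37 also had negative log2 fold changes with rapamycin against control. In rapamycin against control 6 of 39 were called lower and 0 higher (limma, and 6 and 0 with limma-voom), where 0.941% of all genes were called lower. At an unadjusted p under 0.05, 25 were lower, against 7.96% of all genes, and the median was -0.44. Among the called genes were Usp1, which deubiquitinates PCNA, with a log2 fold change of -0.62 (adjusted p = 0.0317), and Dtl, an adaptor for degradation of Cdt1, with -0.60 (0.0362). Dscc1, part of an alternative clamp loader, had -0.98 (0.0419), Tipin, of the fork protection complex, -0.59 (0.0421) and the nuclease-helicase Dna2 -0.57 (0.0439). Dtl had 2469.5, 3234 and 2451 normalized counts in controls, 2405, 2309 and 2161 in mutants and 1966, 1614 and 1755 with rapamycin, and its rapamycin libraries lay below all others. These 5 genes kept their calls in 2 to 4 of the 9 fits that left out a library. Without control 2 or without rapamycin 2 the list had 0 called genes (limma, 22 and 18 at an unadjusted p under 0.05). From control to mutant limma called 0 of 39 (3 at an unadjusted p under 0.05; limma-voom 0, with 4). The replicate block called 3 in the fit of these 2 groups and 0 in the fit of all 9 libraries, with 4 at an unadjusted p under 0.05 in the latter. From mutant to rapamycin it called 0 (11 at an unadjusted p under 0.05; limma-voom 0, with 10).

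Regulators of the G1/S step were mixed in direction. Of 26 listed, 3 were called lower and 2 higher in rapamycin against control, by limma and by limma-voom. Over all genes limma called 0.941% lower and 2.3% higher. Mycn, a transcription factor that keeps nephron progenitors dividing, was lower (log2 fold change -0.96, adjusted p = 0.0102), with 2119.6, 2889 and 3211 normalized counts in controls, 1623, 1626 and 1863 in mutants and 1307, 1294 and 1592 with rapamycin. Cyclin D1 (Ccnd1), which is also a marker of committed nephron cells, had a log2 fold change of -0.69 (adjusted p = 0.0410), and the repressor E2f8 one of -0.64 (adjusted p = 0.0301). Cdkn1a, which encodes the cyclin-dependent kinase inhibitor p21, was higher (1.04, adjusted p = 0.0102), with 485, 484 and 598 in controls, 888, 961 and 1151 in mutants and 876, 1321 and 1057 with rapamycin. It was already higher in the mutants (0.93, adjusted p = 0.0242), and its controls did not overlap either mutant group. Myc was higher with rapamycin (0.63, adjusted p = 0.0399), with 1549.5, 1185 and 1365 in controls, 1724, 1257 and 1364 in mutants and 2123, 2035 and 2145 with rapamycin. Cdkn1a kept its call in rapamycin against control in 8 of 9 fits and in mutant against control in 4 of 9. Mycn kept its call in 6, E2f8 in 3, and Ccnd1 and Myc in 2. Without control 2, limma called 0 of the 26 in rapamycin against control, with 10 at an unadjusted p under 0.05. In mutant against control the replicate block called 3 lower and 1 higher in the fit of these 2 groups, and 1 lower and 1 higher in the fit of all 9 libraries. From mutant to rapamycin limma and limma-voom each called 0 of 26, with 5 at an unadjusted p under 0.05.

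Genes of G2 and mitosis had their lower values at the step from control to mutant. All 24 of this list were lower in mutants than in controls, with a median log2 difference of -0.46. At an unadjusted p under 0.05, 20 were lower, against 4.24% of all genes. limma called 0 of them (smallest adjusted p = 0.0574, Kif11), as did limma-voom with 20 at an unadjusted p under 0.05, while the replicate block called 20 in the fit of these 2 groups and 5 in the fit of all 9 libraries. From mutant to rapamycin the median was 0.01, and limma and limma-voom called 0 with 0 at an unadjusted p under 0.05. In rapamycin against control the median was again -0.46 and 1 was called, the cytokinesis kinesin Kif23 (-0.54, adjusted p = 0.0174), with 2766, 2771 and 2727 normalized counts in controls, 2156, 1879.6 and 2057 in mutants and 2019.8, 1832 and 1822 with rapamycin. That call held in 6 of 9 fits and was lost without control 2, rapamycin 2 or rapamycin 3. For the 42 replication genes the corresponding medians were -0.28, -0.20 and -0.50. The library deviations differed in the same way: mitotic genes had medians of 0.33, 0.21 and 0.41 in control 1 to 3 and -0.24 in rapamycin 2, so that control 1 lay with the controls and rapamycin 2 within the range of the mutants. Without control 1 and rapamycin 2, the medians from mutant to rapamycin were -0.06 for the 42 genes and 0.07 for the mitotic genes. Whether the lists differ was not tested.

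Promoters of the lists also differed in their letters. E2F octamers lay in 28.2% of 39 windows of the other replication genes and in 5% of 20 windows of the mitotic genes, which had a median GC content of 59.7%, near that of the 42. The mitotic windows more often held CCAAT, the core letters of the NF-Y box, with 85% against 56.4% of the 42 and 37.4% of all genes. TTTGAA, a form of the CHR element of mitotic promoters, lay in 75% of them, in 10.3% of windows of the 42 and in 17.9% of all windows. Of the 6 called genes, Rfc3 alone was among those with an E2F octamer in a matched window.

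**Figure D5:**
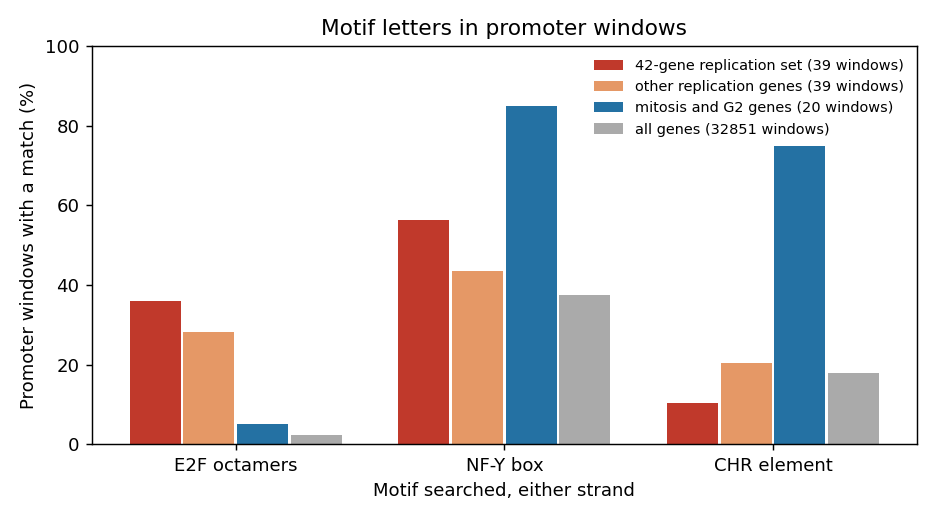
Share of promoter windows (vertical axis, percent) that hold the E2F octamers, CCAAT or TTTGAA on either strand (horizontal axis), for the 42 replication genes, other replication genes, mitotic genes and all genes. E2F octamers reach 35.9% in the 42 against 2.27% in all genes, and TTTGAA reaches 75% in the mitotic genes against 10.3% in the 42.

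Markers of several kidney cell types also differed between the groups. The summed normalized counts of 18 proximal tubule markers were 22111 to 26900 in controls, 26256 to 29740 in mutants and 34319 to 46611 with rapamycin. The highest value was that of rapamycin 2. In mutant against control 2 of the 18 were called higher and 1 lower, 9 log2 fold changes were negative, and the median was 0.07. In rapamycin against control 4 were called higher and 0 lower. Calls for the lists below are those of rapamycin against control unless stated. In that comparison 0.941% of all genes were called lower and 2.3% higher. In the same order, stromal markers (10 genes) summed to 130593 to 147257, 120991 to 138963 and 185645 to 235781, with 3 called higher. Markers of nephron progenitors (9 genes tested) summed to 18926 to 20806, 26115 to 28457 and 27608 to 30818, with 4 called higher and 1 lower. Markers of committed nephron cells (10 genes, Ccnd1 among them) summed to 51286 to 71267, 45539 to 52477 and 33247 to 43700.3, with 4 called lower. Podocyte markers (8 genes) summed to 17502 to 20226, 19483 to 20064 and 13247 to 16185, with 3 called lower. Endothelial markers (8 genes) summed to 18587 to 21755, 17561 to 21651 and 24545 to 31513, with 2 called higher and 1 lower. Markers of ureteric bud and collecting duct (13 genes) were lower in the mutants, with sums of 6872 to 9223 in controls, 4300.0 to 5961 in mutants and 7905 to 9044 with rapamycin. In mutant against control 5 of them were called lower, against 0.366% of all genes. Leukocyte markers summed to 10267 to 14626, 10826 to 23643 and 10686 to 14716. Erythroid markers (6 genes tested) summed to 4671, 681 and 749 in control 1, 2 and 3. Their sums were 620 to 1681 in mutants and 1328 to 3154 with rapamycin. Skeletal muscle markers (5 genes tested) summed to 161 to 229, 200 to 304 and 153 to 229. No gene of these last lists was called in any comparison. In any 1 library at most 1 of the ureteric bud markers was at 0, and no tested marker of the other lists was. The part of these shifts in the lower replication gene values was not tested. The ribosomal RNA share, too, was high in the lowest library of the 42, rapamycin 2, and in the lowest control, control 1, and its part was not tested.

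Reads of neighbouring genes can enter some of these counts, since no source used here says whether counting was strand-specific. On the opposite strand, Fen1 shares 78.8% of its exon bases with Gm10143, Gins2 67.3% with Gse1 and Chaf1a 52.5% with Ubxn6. Of the called genes, Rfc4 shares 12.7% with Eif4a2 and Cdc45 5.96% with Ufd1. The annotated pseudogenes of Pcna and Tyms had mean normalized counts of 0 and 0.58.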

How the data were processed

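Stranded mRNA libraries (KAPA kit, NextSeq 500, per the labels' protocols) were made from 9 samples. The submitters' processing notes name GRCm38, DESeq2 1.22.1, HTSeq 0.6.0, TopHat2 2.1.1 and cutadapt 1.18, and no source used here gives their roles, options or strand setting. The authors deposited raw counts, normalized counts, log2 fold changes and p-values for 54838 genes, with a question mark in place of a count for 6252. Dividing a library's raw counts by a single size factor (0.874 to 1.19) gives the deposited normalized counts. Replicates differed far beyond sampling noise, with a chi-square per degree of freedom of at least 15.6.

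log2(normalized count + 1) was tested with limma 3.58.1 (trended, robust variance, statmod 1.5.0, R 4.3.3) for the 19656 genes with a mean of at least 5, with 9 libraries in 1 fit of 3 group means and Benjamini-Hochberg adjustment over all genes. An adjusted p under 0.05 is a call. Fold changes on this scale understate those of low genes. The test was also run on simulated counts with a fixed spread and set changes larger than those fitted for the replication genes. It was therefore not checked at the size of change seen here. Because of the question marks, count models (edgeR, DESeq2) intended as alternatives were not run. The other 48586 genes do have raw counts, and limma-voom used those of the genes tested. Same-numbered control and mutant libraries had correlated deviations from their group means over all genes (0.428, 0.137 and 0.445), so the number was also used as a block there. This was seen in the data and is not stated in the labels. Between control and mutant libraries of different number the highest correlation was 0.0647. Control 1 and rapamycin 2, also of different number, reached 0.471, so a correlation does not by itself mark a pair. Motifs were counted as exact letters on both strands of RefSeq windows, and exon lengths and overlaps come from GENCODE M21.

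Library values are printed for the most abundant gene, the gene with the smallest p and every called gene of each role, and for called genes of the other lists where examples are shown. A called gene of the other lists is not reported here. The genes and lists were chosen with earlier results of these data known. Alternatives were other pseudocounts, filters, scalings (TMM, upper quartile), limma-voom, plain variance, 2-group fits, the block, and leaving out libraries.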

Additional observations from a re-analysis of the deposited data

How the results depend on the processing

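In mutant against control, 7 of the 42 were called with the replicate block in a fit of the 2 groups, 0 with the block in the fit of 9 libraries (12 at an unadjusted p under 0.05, limma) and 0 under the other alternatives. None was called under any alternative in rapamycin against mutant. The median of the 42 stayed negative in every fit of each comparison. Leaving out 1 library moved it between -0.37 and -0.19 in mutant against control, between -0.31 and -0.06 in rapamycin against mutant, and between -0.60 and -0.34 in rapamycin against control. In rapamycin against control the count of 6 called genes became 2 with plain variance, 2 in a fit of the 2 groups and 2 with the replicate block in those groups. It became 9 with the block in the fit of 9 libraries (Gins1, Rfc5 and Rpa2 added) and 0 to 17 with 1 library left out. Without control 1 and rapamycin 2 it was 3, with Rrm2 and Rfc3 kept and Chaf1b added (adjusted p = 0.0473, limma). The 0 calls of the other comparisons stayed 0 with 1 library left out. Over all genes, calls in rapamycin against control were 637, and 398 with plain variance, 1090 with the replicate block, 418 with the block in 2 groups and 175 to 1131 with 1 library left out. In rapamycin against mutant they were 59, and 103 without a filter, 24 with plain variance, 206 with the replicate block, 7 with the block in 2 groups, 22 without control 1 and rapamycin 2, and 0 to 200 with 1 library left out. In mutant against control they were 279, and 99 in a fit of the 2 groups, 405 with the replicate block, 1398 with the block in 2 groups and 81 to 336 with 1 library left out. For the rapamycin comparisons the shared numbers did not pair the libraries, with correlations of -0.134, 0.0768 and 0.0614 against mutants and -0.338, -0.0139 and 0.218 against controls. The causes of these changes were not tested.

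No value that changed sign passed the test, and Ccne2 moved furthest, to -0.39 without mutant 3 in rapamycin against mutant. In rapamycin against mutant, leaving out control 1 and rapamycin 2 gave log2 values of 0.058 for Mcm2, 0.078 for Mcm3, 0.015 for Mcm4, 0.039 for Mcm5, 0.017 for Mcm6, 0.10 for Cdc6, 0.057 for Gins3, 0.017 for Gins4, 0.010 for Rrm1, 0.11 for Pola2, 0.080 for Rpa1, 0.11 for Chaf1a, 0.032 for Ccne1 and -0.029 for Ccne2. With 1 library left out the same values ran from -0.29 to 0.058 for Mcm2, -0.28 to 0.078 for Mcm3, -0.26 to 0.015 for Mcm4, -0.36 to 0.039 for Mcm5, -0.34 to 0.017 for Mcm6, -0.24 to 0.10 for Cdc6, -0.17 to 0.057 for Gins3, -0.22 to 0.017 for Gins4, -0.16 to 0.010 for Rrm1, -0.15 to 0.11 for Pola2, -0.18 to 0.080 for Rpa1, -0.20 to 0.11 for Chaf1a, -0.40 to 0.032 for Ccne1, -0.39 to 0.58 for Ccne2, -0.075 to 0.21 for Pola1 and -0.11 to 0.19 for Pold1. In mutant against control, Chaf1b ran from -0.42 to 0.039 and Ccne2 from -0.80 to 0.16, and in rapamycin against control Ccne2 ran from -0.50 to 0.049. Ccne2 was also -0.0012 with a pseudocount of 5, -0.0039 with upper quartile scaling and -0.0059 with limma-voom in rapamycin against mutant, and 0.049 in mutant against control and 0.020 in rapamycin against control without control 1 and rapamycin 2.

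Count models (edgeR and DESeq2) were not run. With 3 libraries a group, differences near the members' medians are close to the spread between libraries, and a gene below the threshold is not shown to be equal. Where a library is left out of a group, the remaining 2 share the spread of all groups. Reads are not independent molecules, so depth bears on counting error only.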
